A study of Bos taurus with 28 samples.

Results

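The insulin-like growth factor (IGF) axis in bovine liver is described here through 10 genes, namely the ligands IGF1 and IGF2, the acid-labile subunit IGFALS, the receptor IGF1R and the binding proteins IGFBP1 to IGFBP6. Every probe set annotated with exactly 1 of these symbols was taken, which gave 19 of the 24016 probe sets other than controls on the array, and 10 of the 9155 genes that such probe sets name. A probe set is a group of short probes for 1 transcript, and the one of highest mean signal stands for its gene below. All cows were dry, ovariectomized Holstein females, and liver biopsies were taken after 14 days in 4 groups of 7 arrays each. E2T cows carried an ear implant releasing estradiol, P4T cows a vaginal device delivering progesterone, E2P4T cows both devices, and control cows (CO) neither. The route of progesterone is taken from the study's methods, which describe intravaginal inserts; labels of the P4T samples name an intradermal one. The methods describe a Latin square in which each cow passed through all treatments, so the same cows recur across the groups. The labels give neither cow nor period, and the P-values below treat the arrays as independent.

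The liver is the main source of circulating IGF1, which it makes in response to growth hormone. In blood most IGF travels in a complex with IGFBP3 and the acid-labile subunit, which keeps the hormone in the circulation, whereas IGFBP1, IGFBP2, IGFBP4 and IGFBP6 form smaller complexes without that subunit. Hepatic IGFBP1 is under rapid control by insulin, IGFBP2 commonly increases when growth hormone or nutrition is low, and IGFBP6 binds IGF2 in preference to IGF1. Signals of IGF1 and of much of IGF2 pass through IGF1R, a tyrosine kinase receptor. In the current bovine annotation IGFBP1 lies beside IGFBP3, IGFBP2 beside IGFBP5, and IGF2 beside the insulin gene INS.

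No IGF axis transcript differed between treatments after adjustment over all probe sets. The lowest P-values belonged to 2 binding proteins, IGFBP2, whose mean signal was 2.19-fold lower in E2T than in CO, and IGFBP6, whose mean was about 1.54-fold lower in E2T and 1.55-fold lower in E2P4T than in CO. IGF1 itself differed from CO by -0.10, -0.12 and -0.19 log2 units in E2T, P4T and E2P4T with all arrays, and by -0.10, -0.29 and -0.41 without 2 arrays that stood apart. In limma, which was fitted to the log2 signal of all 28 arrays, none of the 17 IGF axis probe sets tested reached an adjusted P-value of 0.05 in any comparison, and 0% of the 18775 probe sets tested did so. At an unadjusted P-value of 0.05, IGFBP2 and IGFBP6 were called in E2T against CO (2 of 17, against 5.44% of all probe sets tested) and IGFBP6 in E2P4T against CO (1 of 17, against 4.91%). In P4T against CO 0 of 17 were called, against 2.78% of all, and in the F test over the treatments 0 of 17, against 2.14%.

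Tissue identity and array quality were examined first, and 2 arrays stood apart. The biopsy labelled E2P4T 5 went against its liver label. Of its markers 18 of 19 for hepatocytes, ALB and APOA1 among them, lay below the lowest of the other 27 arrays, as did 6 of 6 for Kupffer cells, while 10 of 11 for the kidney nephron, UMOD and CDH16 among them, lay above the highest of the other arrays. Its mean log2 signal over the hepatocyte list was 10.18, against 15.13 to 15.79 on the other arrays, and over the kidney nephron list 11.10, against 5.52 to 8.20. P4T 4 had the second highest signal of the RNAs that were spiked into the samples as labelling controls, with a mean of 17.49 in log2 units after 18.44 on E2P4T 5, and 30.9% of its probe sets lay outside the range of the other 27 arrays, against 47.5% on E2P4T 5 and 1.94% to 11.8% on the remaining 26. CO 3 followed with 16.45 and E2T 3 with 15.64, and the other 24 arrays had means of 13.18 to 15.07. The study left out an outlying array each from P4T and E2P4T without naming them. After that it counted 7 arrays each for P4T and E2P4T, as many as are deposited, and more for CO and E2T than are deposited. The arrays it left out may thus be absent here already, and whether P4T 4 and E2P4T 5 are among them is not known. The values below are given with all 28 arrays and, where that moves them, with the 26 that remain without P4T 4 and E2P4T 5.

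**Figure D1:**
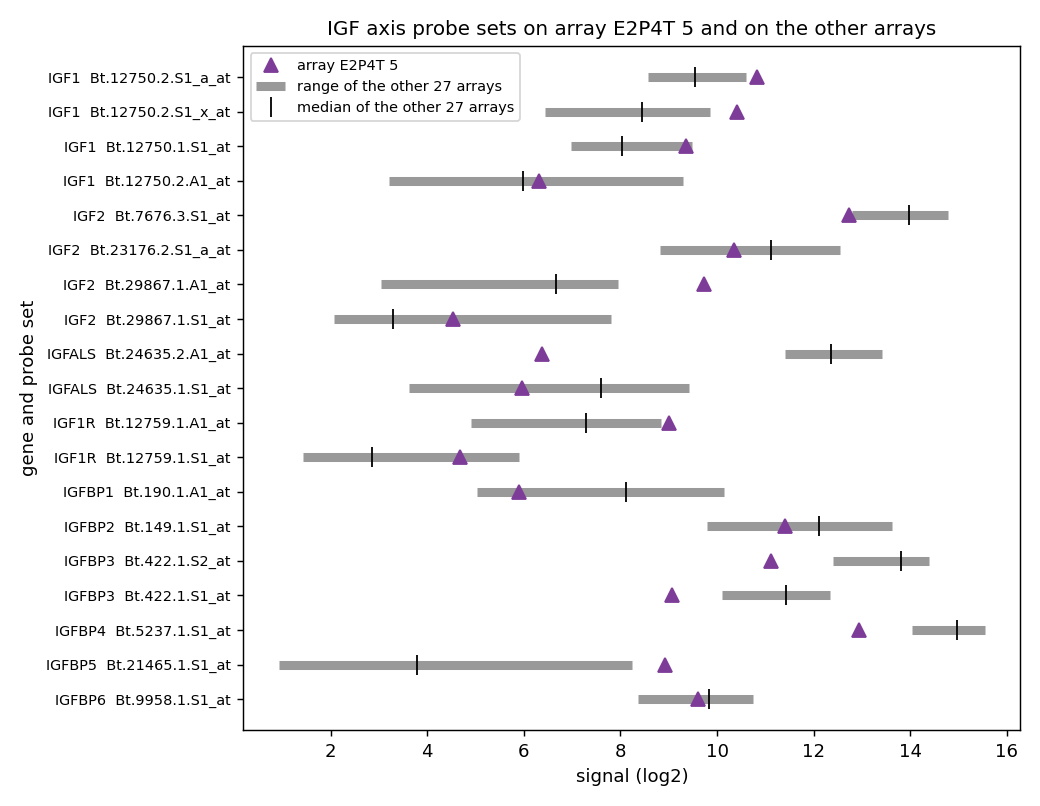
Signal (log2) of the 19 IGF axis probe sets on array E2P4T 5 (triangle), with the range (grey bar) and the median (black tick) of the other 27 arrays. The marked probe sets of IGFALS, IGFBP3, IGFBP4 and IGF2 and the second IGFBP3 probe set lie below the other arrays. Above them lie the marked probe sets of IGF1, IGF1R and IGFBP5, with Bt.12750.2.S1_x_at of IGF1 and Bt.29867.1.A1_at of IGF2. The remaining probe sets lie within the range.

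The IGF axis was displaced on E2P4T 5 in both directions. Of the 17 probe sets tested, 5 lay below and 5 above the range of the other 27 arrays, which is 10 of 17 against 47.5% of all probe sets tested. Of the 5 above, IGFBP5 and the IGF2 probe set Bt.29867.1.A1_at had passed the signal floor on E2P4T 5 alone and so had to lie above. Over probe sets that passed it on another array, 8 of 15 lay outside, against 40.6% of all. IGFALS had a log2 signal of 6.38 there, against 11.41 to 13.42 elsewhere, 63.2-fold below the median of the other arrays. IGFBP3 stood at 11.11, against 12.40 to 14.38, and IGFBP4 at 12.95, against 14.04 to 15.55. IGFALS and IGFBP3, which hepatocytes and other liver cells release into the circulating complex, were both below the other arrays. IGF1, in contrast, had its highest signal on this array, 10.83 against 8.57 to 10.59 elsewhere, as did IGF1R with 9.01 against 4.91 to 8.84. IGFBP5 reached 8.93, against 0.93 to 8.23. On P4T 4, 4 of 17 lay outside the range of the other arrays, against 30.9% of all. These were 2 IGF1 probe sets other than the marked one above it, and IGFBP2 and an IGF2 probe set below it. Of these, the IGF1 probe set Bt.12750.2.A1_at had passed the signal floor on P4T 4 alone and so had to lie above. The share over probe sets that passed it on another array was not computed for P4T 4.

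The ligands differed little between groups. IGF1 (probe set Bt.12750.2.S1_a_at) had log2 signals from 8.98 through a median of 9.79 to 10.19 in E2T, from 9.17 through 9.49 to 10.59 in P4T, from 8.57 through 9.34 to 10.83 in E2P4T and from 9.16 through 9.66 to 10.20 in CO. The 4 ranges overlapped throughout. None of the differences from CO exceeded their SE of 0.28 with all arrays (unadjusted P-values 0.73, 0.66 and 0.50 in E2T, P4T and E2P4T). The 95% confidence interval of the fold change ran from 0.634 to 1.38 in E2T and from 0.596 to 1.30 in E2P4T. Without P4T 4 and E2P4T 5, the arrays with the highest IGF1 in their groups, the P4T difference was -0.29 (SE 0.22, unadjusted P-value 0.20) and the E2P4T difference -0.41 (SE 0.22, unadjusted P-value 0.075, adjusted 0.55).

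The gene has 3 further probe sets, of which Bt.12750.2.S1_x_at and Bt.12750.1.S1_at reached the signal floor of 350 on 15 and 8 arrays and Bt.12750.2.A1_at only on P4T 4. In all 3 the E2T mean lay above the CO mean, by 0.28, 0.21 and 0.38 log2 units, whereas it lay below in the marked probe set; none of these had an unadjusted P-value under 0.05. On the 26 arrays Bt.12750.1.S1_at was 0.70 higher in E2T than in P4T (unadjusted P-value 0.02, adjusted 1.0). Across the 26 arrays, with group means removed, the marked probe set correlated with the others at r between 0.02 and 0.37. The direction in E2T thus depended on the probe set, and the type ending in x_at contains probes that can match other transcripts.

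IGF2 (Bt.7676.3.S1_at) was strongly detected on every array, with signals from 6829 to 28338. Its log2 signals ran from 13.01 through 13.77 to 14.59 in E2T, from 12.79 through 13.89 to 14.53 in P4T, from 12.74 through 13.89 to 14.39 in E2P4T and from 13.47 through 14.21 to 14.79 in CO. The mean was below that of CO by 0.41, 0.45 and 0.45 log2 units in E2T, P4T and E2P4T (SE 0.28 each, unadjusted P-values 0.15, 0.11 and 0.12), and by 0.41, 0.29 and 0.27 on the 26 arrays. The ranges overlapped, and the 3 differences share the CO arrays. The second IGF2 probe set, Bt.23176.2.S1_a_at, moved with the first from array to array (r = 0.70 over 26 arrays with group means removed) but had differences from CO of 0.25, -0.18 and 0.07 (SE 0.47 each). Bt.29867.1.A1_at passed the floor only on E2P4T 5, with a signal of 849, and Bt.29867.1.S1_at, whose highest signal was 225, was not tested.

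**Figure D2:**
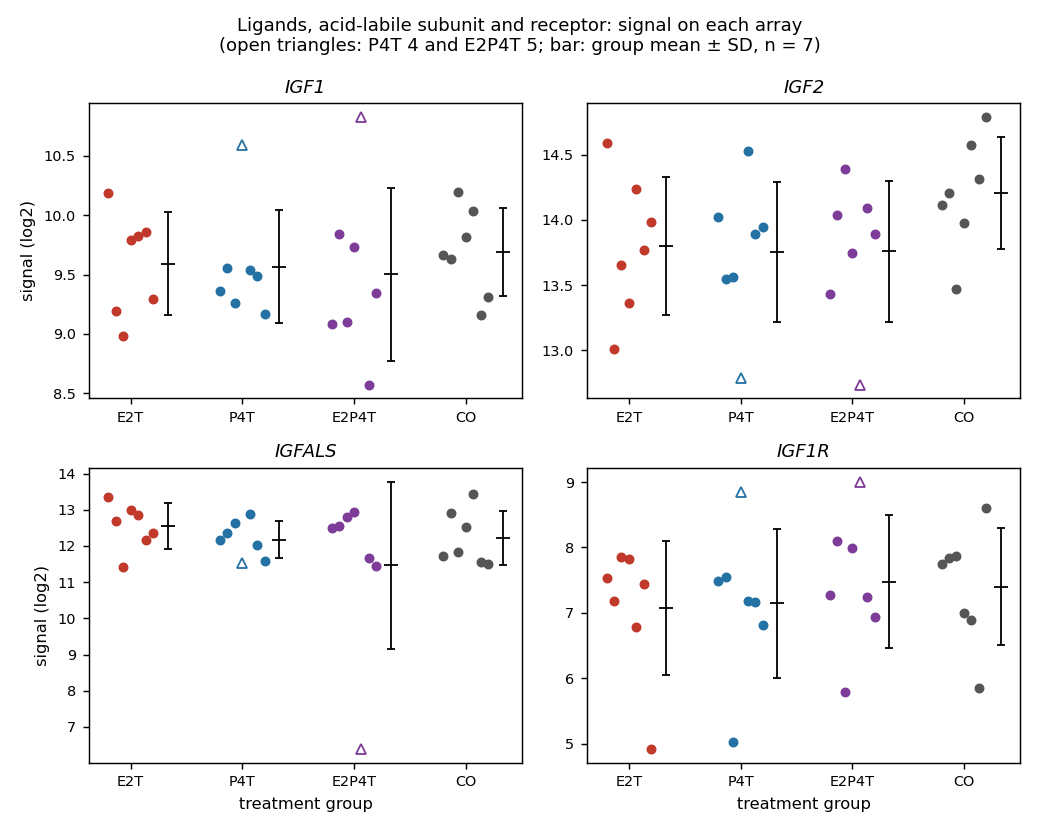
Log2 signal of IGF1, IGF2, IGFALS and IGF1R (marked probe sets) on each array, by treatment group, with the group mean and SD (n = 7) beside the points; open triangles are P4T 4 and E2P4T 5. The groups overlap in every panel, and IGFALS of E2P4T 5 lies at 6.38, far below all other arrays.

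IGFALS, the subunit made almost only by hepatocytes, showed the strongest dependence on a single array. Its log2 signals ran from 11.41 through 12.68 to 13.35 in E2T, from 11.52 through 12.15 to 12.90 in P4T, from 6.38 through 12.50 to 12.93 in E2P4T and from 11.51 through 11.84 to 13.42 in CO. With all arrays, IGFALS differed from CO by 0.33, -0.04 and -0.75 in E2T, P4T and E2P4T (SE 0.61 each, unadjusted P-values 0.59, 0.94 and 0.23). Without P4T 4 and E2P4T 5 the E2P4T difference was 0.10 (SE 0.32), so that the lower E2P4T mean rested on E2P4T 5. The fold change of E2T over CO had a 95% confidence interval from 0.818 to 1.93 on the 26 arrays. The second probe set, Bt.24635.1.S1_at, passed the floor on 5 arrays and differed from CO by 0.54, -0.59 and -0.39 in E2T, P4T and E2P4T (SE 0.68 each).

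IGF1R had low signals. Bt.12759.1.A1_at reached 350 on only 3 of 28 arrays, its median signal was 164, and Bt.12759.1.S1_at had no signal above 59.5 and was not tested. Its log2 signals ran from 4.91 through 7.44 to 7.86 in E2T, from 5.02 through 7.17 to 8.84 in P4T, from 5.79 through 7.28 to 9.01 in E2P4T and from 5.85 through 7.74 to 8.61 in CO. The differences from CO were -0.32, -0.25 and 0.08 in E2T, P4T and E2P4T (SE 0.53 each), and on the 26 arrays -0.32, -0.53 and -0.18 (SE 0.48 to 0.50). The 95% confidence intervals with all arrays lay between -1.41 and 1.17 at their outer ends, wider than those of IGF1.

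IGFBP2 had the lowest P-value of the axis in E2T against CO. This carrier protein had log2 signals from 10.11 through 11.25 to 12.28 in E2T, from 9.80 through 12.58 to 13.19 in P4T, from 11.41 through 12.02 to 12.98 in E2P4T and from 11.10 through 12.63 to 13.62 in CO. All 7 E2T arrays lay below the CO mean of 12.49, and 2 of them below the lowest CO array, so the groups overlapped. The mean was 11.36 ± 0.73 in E2T and 12.49 ± 0.98 in CO (SD, n = 7 each). The difference was -1.13 log2 units (SE 0.44, 95% confidence interval -2.02 to -0.24, unadjusted P-value 0.015, adjusted 0.87). In P4T and E2P4T the differences from CO were -0.22 and -0.32 (unadjusted P-values 0.61 and 0.47). The study already names IGFBP2 among the genes lowered by estradiol, by its unadjusted criteria and a model with cow and period.

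E2T also had less IGFBP2 signal than P4T, by 0.91 log2 units (unadjusted P-value 0.047, adjusted 1.0), the 1 call of 17 in that comparison, against 1.44% of all probe sets tested. P4T 4 alone held the lowest IGFBP2 of its group, and 6 of 7 E2T arrays lay below all of the other 6 P4T arrays. Without P4T 4 and E2P4T 5, the difference of E2T from P4T was -1.32 (unadjusted P-value 0.0011, adjusted 1.0), that from CO stayed at -1.13 (unadjusted 0.003, adjusted 0.39), and IGFBP2 was the 1 probe set of 17 with an F test P-value under 0.05 (0.0044, adjusted 0.87), against 5.7% of all. E2P4T lay above E2T by 0.81 with all arrays (unadjusted P-value 0.073) and by 0.94 on the 26 arrays, with means of 12.30 in E2P4T and 11.36 in E2T (unadjusted P-value 0.015, adjusted 1.0). The interaction of the hormones was 1.04 with all arrays (unadjusted P-value 0.10) and 0.75 on the 26 (0.16), so the response to estradiol was not shown to differ with progesterone.

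Calls in the remaining comparisons also changed with the arrays included. With all arrays the calls were 0 of 17 for E2P4T against E2T (2.04% of all), 0 of 17 for E2P4T against P4T (1.95%), 0 of 17 for the main effect of E2 (4.02%), 0 of 17 for that of P4 (1.67%) and 0 of 17 for the interaction (2.99%). IGFBP2 was, on the 26 arrays, the 1 of 17 called in E2P4T against E2T (1.57% of all), and IGFBP2 and the IGF1 probe set Bt.12750.1.S1_at were the 2 of 17 in E2T against P4T (1.61%). The main effect of E2 had 3 of 17 (4.84%), namely IGFBP2 with -0.76 (unadjusted P-value 0.0065, adjusted 0.93) and both IGFBP3 probe sets. That of P4 had 2 of 17 (4.26%), IGFBP2 with 0.56 (unadjusted P-value 0.037) and the IGF1 probe set Bt.12750.2.S1_x_at with -0.55 (0.047), both with an adjusted P-value of 0.97. E2P4T against P4T had 0 of 17 (1.36%) and the interaction 0 of 17 (4.01%).

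The size of the IGFBP2 difference depended on scaling. The median log2 signal of the arrays, over all probe sets other than controls, was on average 0.27 lower in E2T than in CO, 0.12 lower in P4T and 0.06 lower in E2P4T. Centring each array on its median gave an IGFBP2 difference of -0.86 between E2T and CO (unadjusted P-value 0.15), whereas quantile normalization gave -1.17 (unadjusted P-value 0.017). The hepatocyte list ranged from 15.20 to 15.63 in E2T and from 15.31 to 15.77 in CO, and its part in the difference was not tested. In biopsies, fewer cells of a type and less RNA per cell cannot be told apart.

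IGFBP6, the carrier with a preference for IGF2, had log2 signals from 8.95 through 9.50 to 10.08 in E2T, from 8.78 through 9.84 to 10.50 in P4T, from 8.37 through 9.61 to 10.34 in E2P4T and from 9.28 through 10.25 to 10.75 in CO. All 7 E2T arrays, 6 of 7 P4T arrays and 6 of 7 E2P4T arrays lay below the CO mean, and the ranges overlapped, with CO 1 the lowest control. The differences from CO were -0.63, -0.46 and -0.63 in E2T, P4T and E2P4T (SE 0.28 each, unadjusted P-values 0.03, 0.10 and 0.03, adjusted 0.87, 1.0 and 0.93), and they share the same CO arrays. On the 26 arrays those in P4T and E2P4T were -0.52 and -0.64. Centring on array medians reduced the E2T difference to -0.36 (unadjusted P-value 0.27) and the E2P4T difference to -0.57 (0.083). Without CO 2, the highest control, the E2T and E2P4T differences had unadjusted P-values of 0.074 and 0.072, and without E2P4T 2 the E2P4T difference was -0.43 (0.11). The stellate cell and fibroblast list ranged from 8.65 to 9.23 in E2T, from 8.48 to 9.63 in E2P4T and from 8.01 to 9.08 in CO. Without E2P4T 5 its highest value in E2P4T was 9.25. The part of this list was not tested.

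**Figure D3:**
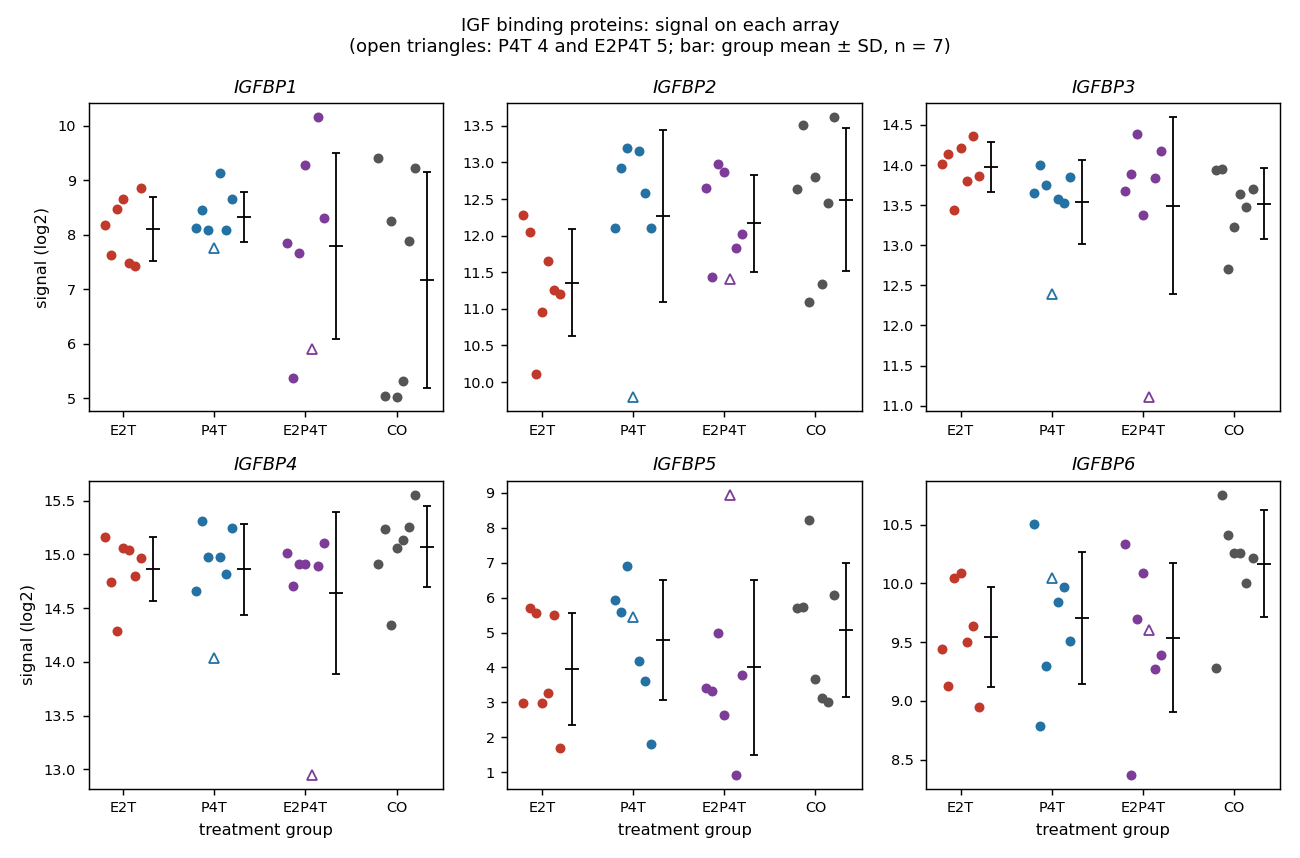
Log2 signal of IGFBP1 to IGFBP6 (marked probe sets) on each array, by treatment group, with the group mean and SD (n = 7) beside the points; open triangles are P4T 4 and E2P4T 5. IGFBP2 in E2T and IGFBP6 in the treated groups sit mostly below the CO mean, and IGFBP1 has 5 arrays at or below 5.90, of which 3 are from CO.

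IGFBP3, the main carrier of the circulating complex, had log2 signals from 13.44 through 14.01 to 14.37 in E2T, from 12.40 through 13.65 to 14.00 in P4T, from 11.11 through 13.84 to 14.38 in E2P4T and from 12.70 through 13.63 to 13.95 in CO. With all arrays the differences from CO were 0.46, 0.02 and -0.03 (SE 0.34 each, lowest unadjusted P-value 0.19). The result changed with the arrays included. On the 26 arrays IGFBP3 was 0.46 higher in E2T than in CO (SE 0.18, unadjusted P-value 0.018, adjusted 0.42) and 0.37 higher in E2P4T (SE 0.19, unadjusted P-value 0.06). The second probe set, Bt.422.1.S1_at, gave 0.54 in E2T (unadjusted P-value 0.029, adjusted 0.45) and 0.65 in E2P4T (0.013, adjusted 0.49) on these arrays. Both IGFBP3 probe sets were thus among the 4 of 17 called in E2T against CO on the 26 arrays, with IGFBP2 and IGFBP6, against 10.2% of all probe sets tested. In E2P4T against CO, 2 of 17 were called, the second IGFBP3 probe set and IGFBP6, against 9.5% of all, and in P4T against CO 0 of 17, against 8.2%. The IGFBP3 signal moved with that of the spiked controls (r = -0.63 over the 26 arrays, which share cows across groups), as did IGFBP2 (r = -0.66). Of the 7 E2T arrays, 5 had a spiked-control mean below the lowest CO array, as had 5 of 6 P4T and 3 of 6 E2P4T arrays on the 26 (medians 13.96, 13.93 and 14.11 in E2T, P4T and E2P4T, against 14.43 in CO). The part of these controls in the IGFBP3 difference was not tested beyond leaving out arrays.

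IGFBP4, a carrier that is mostly described as holding IGF back from its receptor, had log2 signals from 14.29 through 14.96 to 15.16 in E2T, from 14.04 through 14.97 to 15.31 in P4T, from 12.95 through 14.91 to 15.11 in E2P4T and from 14.34 through 15.13 to 15.55 in CO. Without E2P4T 5 and P4T 4 its SD within groups ran from 0.13 in E2P4T to 0.38 in CO. The differences from CO were -0.21, -0.21 and -0.43 in E2T, P4T and E2P4T (SE 0.28 each, lowest unadjusted P-value 0.14), and on the 26 arrays -0.21, -0.07 and -0.15 (SE 0.17 each). The interval on the 26 arrays bounded any decrease in E2T at a fold change of 0.684.

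IGFBP1, the insulin-regulated carrier, reached a signal of 350 on 9 of 28 arrays and varied widely among them, with an SD within groups of 1.36 log2 units. Its log2 signals ran from 7.43 through 8.19 to 8.86 in E2T, from 7.76 through 8.12 to 9.14 in P4T, from 5.38 through 7.85 to 10.15 in E2P4T and from 5.02 through 7.88 to 9.41 in CO. A gap separated 5 arrays at or below 5.90 from 23 arrays at or above 7.43. The low arrays numbered 0 of 7 in E2T, 0 of 7 in P4T, 2 of 7 in E2P4T and 3 of 7 in CO, so the CO arrays fell apart into 3 low and 4 high ones and spanned 20.9-fold. One of the low E2P4T arrays was E2P4T 5, without which 1 of 6 was low. The differences from CO were 0.94, 1.16 and 0.62 in E2T, P4T and E2P4T (SE 0.67 each, unadjusted P-values 0.17, 0.09 and 0.36), and 0.94, 1.26 and 0.94 on the 26 arrays. The SD within CO, 1.98, was larger than each of these differences.

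IGFBP5 had hardly any signal in liver. Its median signal over all arrays was 16.1, and it passed the floor on E2P4T 5 alone, with 489, so that only the array with kidney nephron markers admitted it to the test. Log2 signals ran from 1.68 through 3.28 to 5.71 in E2T, from 1.81 through 5.43 to 6.92 in P4T, from 0.93 through 3.41 to 8.93 in E2P4T and from 3.00 through 5.71 to 8.23 in CO. The differences from CO were -1.12, -0.29 and -1.07 (SE 1.03 each), smaller than the SD of 1.91 within CO. On the 26 arrays the difference in E2P4T was -1.90 (unadjusted P-value 0.051), at signals that then pass the floor on no array.

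**Figure D4:**
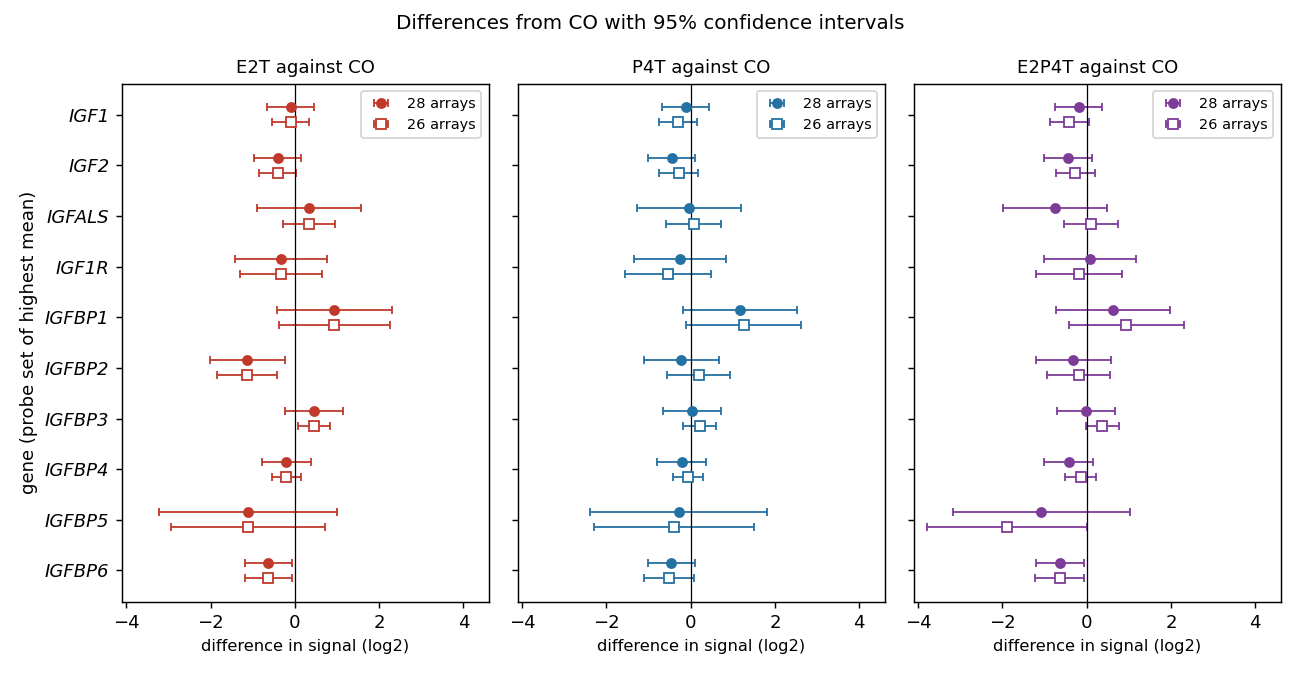
Difference in log2 signal from CO for the 10 IGF axis genes (marked probe sets) in E2T, P4T and E2P4T, with 95% confidence intervals from limma; filled circles use all 28 arrays and open squares the 26 arrays without P4T 4 and E2P4T 5. Only IGFBP2 in E2T and IGFBP6 in E2T and E2P4T have intervals clear of 0 with all arrays, and IGFBP3 in E2T joins them on the 26 arrays; none passed adjustment.

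Taking the 10 genes side by side, 3 had a mean above CO and 7 below it in E2T, with a median difference of -0.26, against -0.10 over all probe sets tested. In P4T the counts were 2 above and 8 below (median -0.22, against -0.03 over all probe sets), and in E2P4T 2 above and 8 below (median -0.37, against -0.02 over all probe sets, and on the 26 arrays -0.19, against -0.09). After centring on array medians the E2T counts were 5 above and 5 below, with IGF1 and IGFBP4 on the other side of 0. In the order of group means with all arrays, no neighbouring groups had an unadjusted P-value under 0.05 for any of the 10 genes, and the lowest was 0.073, for IGFBP2 in E2P4T and E2T. That pair had 0.015 on the 26 arrays, and the next lowest was 0.08, for IGFBP6 in P4T and CO.

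The binding proteins with strong liver signals were lowest on the arrays with the highest spiked-control signal. On E2T 3, P4T 4, E2P4T 5 and CO 3, IGFBP2, IGFBP4 and both IGFBP3 probe sets each had the lowest value of their group, every time. This held for 4 of 17 IGF axis probe sets, against 3.74% of all probe sets tested, a share that includes weak probe sets. In the other direction, 0 of 17 were highest of their group on all 4 arrays, against 9.63% of all. The marked IGF2 and IGFALS probe sets were lowest on 3 of the 4 arrays, so the pattern was not confined to binding proteins. IGFBP6 was neither lowest nor highest of its group on any of these 4 arrays, and IGF1 was highest of its group on 3 of them and lowest on 1. As each group holds 1 of the 4 arrays, leaving all of them out kept the IGFBP2 difference of E2T from CO at -1.16 (unadjusted P-value 0.0013), and the IGFBP3 difference was 0.41 (unadjusted P-value 0.016).

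**Figure D5:**
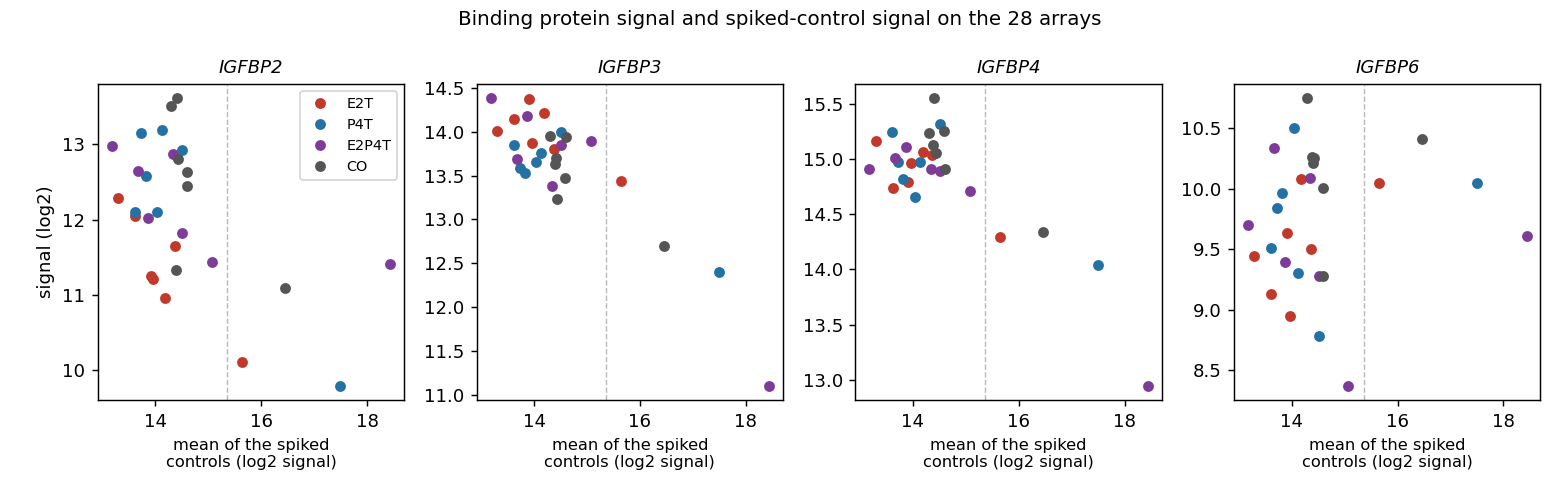
Log2 signal of IGFBP2, IGFBP3, IGFBP4 and IGFBP6 on each of the 28 arrays against the mean log2 signal of the spiked controls, coloured by group. The 4 arrays right of the dashed line (E2T 3, P4T 4, E2P4T 5 and CO 3) are the lowest of their groups for IGFBP2, IGFBP3 and IGFBP4, and not for IGFBP6.

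IGF1, IGFALS and IGFBP3, which form the circulating complex, were compared within each group of 7 arrays. Of 12 correlations none passed adjustment (lowest adjusted P-value 0.21, two-sided exact permutation tests). IGF1 and IGFALS had r = 0.74 in E2T (exact P-value 0.047, adjusted 0.21; rho = 0.57, exact P-value 0.20, adjusted 0.84; r = 0.65 without the 2 arrays farthest from the median), and r = -0.41, -0.71 and 0.51 in P4T, E2P4T and CO (exact P-values 0.43, 0.12 and 0.24). IGF1 and IGFBP3 had r = -0.92 in P4T (exact P-value 0.052, adjusted 0.21; rho = -0.43, exact P-value 0.35, adjusted 0.84), which was 0.10 without the 2 farthest arrays, and r = -0.82 in E2P4T (exact P-value 0.043, adjusted 0.21; rho = -0.36, exact P-value 0.44, adjusted 0.86), which was -0.49 without them. IGFALS and IGFBP3 had r = 0.90 in E2P4T (exact P-value 0.10, adjusted 0.29), which was -0.05 without the 2 farthest arrays. Without those 2 arrays, no value in P4T or E2P4T was beyond -0.49.

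Genes whose signal followed that of IGF1 and IGFALS most closely were sought among 10856 other probe sets with 1 symbol, over the 26 arrays with group means removed. These arrays share cows across groups, and the values are a description. For IGF1 they were SPATA24 (r = 0.75), KCNJ16 (0.71), PLEKHB1 (0.69), NCLN (0.69) and CISH (0.69), the last a suppressor that growth hormone induces. For IGFALS they were POLR2F (r = 0.89), TEN1 (0.89), RPL28 (0.87), NDUFV1 (0.87) and NECTIN2 (0.84). With all 28 arrays IGF1 had r = 0.70 to 0.81 with 4 of its 5 genes and 0.10 with NCLN, and IGFALS had 0.77 with NECTIN2, 0.64 with RPL28, 0.55 with TEN1, 0.15 with NDUFV1 and 0.10 with POLR2F.

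Genes that act around the IGF axis gave few low P-values. Of 46 listed, 27 were on the array and 22 were tested, and none passed adjustment in limma. At an unadjusted P-value of 0.05 with all arrays, 0 were higher and 0 lower in E2T than in CO (5.44% of all probe sets called), 0 higher and 1 lower in P4T (2.78%), and 1 higher and 1 lower in E2P4T (4.91%). The counts on the 26 arrays were 1 higher and 1 lower in E2T (10.2%), 1 higher and 2 lower in P4T (8.2%), and 0 higher and 1 lower in E2P4T (9.5%). Their median difference was -0.03, 0.04 and 0.00 in E2T, P4T and E2P4T, against -0.10, -0.03 and -0.02 over all probe sets tested.

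In the growth hormone signal, 6 genes were tested. STAT5B, a transcription factor that carries the signal from the growth hormone receptor to the nucleus, averaged 8.66, 8.52 and 8.35 in log2 signal in E2T, P4T and E2P4T, against 9.17 in CO. Its differences from CO were -0.51, -0.65 and -0.82 (SE 0.29 each, unadjusted P-values 0.093, 0.034 and 0.0087, adjusted 0.87, 1.0 and 0.93). The receptor GHR differed by 0.56, 0.22 and -0.46 in E2T, P4T and E2P4T (SE 0.59 each), and on the 26 arrays its E2P4T difference was 0.20, on the other side of 0. The feedback suppressor SOCS2 differed by 0.51, -0.10 and -0.07 (SE 0.54 each), and on the 26 arrays by -0.41 in P4T and 0.15 in E2P4T. CISH differed by 0.22, 0.21 and -0.27 (SE 0.28 each), and its P4T difference was -0.02 on the 26 arrays.

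Of other receptors and binders, IGF2R, which clears IGF2 from the cell surface, averaged 11.26, 11.21 and 10.96 in E2T, P4T and E2P4T, against 10.71 in CO (unadjusted P-values 0.057, 0.082 and 0.38). Its differences from CO on the 26 arrays were 0.55, 0.60 and 0.35 (unadjusted P-values 0.047, 0.038 and 0.22, adjusted 0.48, 0.60 and 0.66). The insulin receptor INSR differed by 0.49, 0.77 and 0.47 (SE 0.53 each) at the probe set of highest mean among its 5. Its other probe sets are not described here. The study, in contrast, names INSR among the genes lowered only by the combined treatment, and does not give the probe set behind that. IGFBP7, a relative that binds IGF weakly, was 0.53 higher in E2P4T than in CO (unadjusted P-value 0.041, adjusted 0.93), and 0.32 higher without E2P4T 5 and P4T 4 (unadjusted P-value 0.087). The endothelium list ranged from 8.26 to 9.30 in E2P4T and from 7.75 to 9.15 in CO. Without E2P4T 5 its highest value in E2P4T was 8.71. The part of this list in IGFBP7 was not tested.

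Among 5 proteases and inhibitors and 7 signal relays tested, 0 were called against CO in any treatment with all arrays, beside the shares of 5.44%, 2.78% and 4.91% above. The proteases HTRA1, ADAM9 and MMP2, which have been described to cut binding proteins, differed from CO by -0.06, 0.12 and -0.25 in E2T (SE 0.21, 0.22 and 0.43). The kinase AKT2, which acts downstream of IGF1R and the insulin receptor, averaged 9.42 in E2T, 9.94 in P4T and 9.68 in E2P4T, against 9.90 in CO, and E2T differed from P4T by -0.52 (SE 0.24, unadjusted P-value 0.034, adjusted 1.0). AKT2 was called on the 26 arrays in E2T against CO (-0.48, unadjusted P-value 0.045, adjusted 0.48) and the adaptor GRB10, which binds the insulin and IGF1 receptors, in P4T against CO. GRB10, named after its values were seen, differed there by -1.56 (SE 0.66, unadjusted P-value 0.025, adjusted 0.60), and with all arrays by -0.97 (SE 0.75, unadjusted P-value 0.20). Its signals were low, with all-array log2 means of 6.23, 5.11 and 6.58 in E2T, P4T and E2P4T, against 6.08 in CO.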

How the data were processed

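The authors hybridized biotin-labelled RNA of each liver biopsy to the Affymetrix Bovine GeneChip and deposited MAS 5.0 signal intensities on a linear scale, 24128 per array, scaled to a common mean (trimmed mean 1000.2 to 1000.41 on the 28 arrays). The deposited table holds no detection calls. Samples were grouped by their labels. The signals were analysed as log2 values with no further scaling. Probe sets other than controls with a signal of at least 350 on 1 array or more were tested (18775), in place of the calls of presence used in the study. R 4.3.3 and limma 3.58.1 (lmFit, eBayes with trend) were fitted to all 4 groups together, with Benjamini-Hochberg adjustment over all probe sets tested and a threshold of 0.05. The study's mixed model was not run, since cow and period are not in the labels. Nothing in the labels separates cow from array within a group beyond a replicate number, and precision is limited by the number of arrays.

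Symbols came from the array annotation (13292 probe sets have exactly 1 symbol, 86 several and 10638 none), and all 19 IGF axis probe sets matched a current bovine symbol. Gene order along the chromosomes was read from the RefSeq annotation of the current bovine assembly, since the build behind the array annotation is not given in the sources used here. The genes, partner lists and marker lists were chosen with earlier results of these data known. All IGF axis probe sets are described; of the partners, those with an unadjusted P-value under 0.05 against CO and up to 4 others per role are named, with AKT2 for its difference between treatments. On simulated data for E2T against CO, with 50 changed of 18775 probe sets per size, the share recovered was 0% at a log2 change of 0.5, 22% at 1, 52% at 1.5 and 44% at 2. The alternatives run were median centring, quantile normalization, a pseudocount of 50, no signal floor, only probe sets of above-median mean signal, unmoderated variances, a replicate block (fixed or random), array weights, only the groups compared, the mean over the probe sets of a gene, the study's criteria (F test P-value under 0.01, contrast P-value under 0.05 and fold change of 1.25), leaving out each array, and leaving out P4T 4 and E2P4T 5. Leaving out also E2T 3 and CO 3, and the study's criteria without P4T 4 and E2P4T 5, were chosen after seeing the data. Raw images and detection calls were not analysed here.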

Additional observations from a re-analysis of the deposited data

Results flagged for a closer look

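Single arrays that lay far from the others of their group were sought with Dixon's criterion at the 95% level in all 19 probe sets and 4 groups. Of 76 groups 12 held such an array, where chance flags about 1 in 20, or 3.8 of 76. The share flagged over all probe sets was not computed, so the count is not shown to be particular to the IGF axis. Over all probe sets tested, 47.5% on E2P4T 5 and 30.9% on P4T 4 lay outside the range of the other arrays. E2P4T 5 accounted for 5 of them. Its log2 signal was 6.38 for IGFALS (nearest other E2P4T array 11.43), 11.11 for IGFBP3 (nearest 13.38), 9.08 for the second IGFBP3 probe set (nearest 11.10) and 12.95 for IGFBP4 (nearest 14.71), all low, and 10.42 for the IGF1 probe set Bt.12750.2.S1_x_at (nearest 8.57), which was high. P4T 4 accounted for 3, with 10.59 for IGF1 (nearest 9.56), 9.80 for IGFBP2 (nearest 12.10) and 12.40 for IGFBP3 (nearest 13.53). CO 3 had 10.10 for the second IGFBP3 probe set (nearest 11.05).

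The other flags were at low signals. IGF1R had 4.91 on E2T 7 (nearest 6.78), its second probe set 5.89 on E2T 3 (nearest 3.47), and the IGF2 probe set Bt.29867.1.A1_at 3.71 on CO 6 (nearest 6.54).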

How the results depend on the processing

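The count of IGF axis probe sets past the adjusted threshold was 0 in every comparison under every alternative run. The share of all probe sets tested past it was 0% with all 28 arrays and with the 26, and was not computed under the other alternatives. By the study's criteria, which are unadjusted, the count against CO was 0 of 17 in each treatment with all arrays. Of all probe sets tested 0.293%, 0.154% and 0.176% met them in E2T, P4T and E2P4T. Without P4T 4 and E2P4T 5 the count was 1 in E2T (IGFBP2, against 0.826% of all probe sets tested), 0 in P4T (0.682%) and 0 in E2P4T (0.794%). Over 3642 values of single genes in 41 settings, 3541 kept their side of an unadjusted P-value of 0.05 and their direction where it had been called, 33 lost and 68 gained a P-value under 0.05, and 0 called values reversed. The IGFBP2 difference of E2T from CO ranged from -1.36 to -0.86 and kept a P-value under 0.05 in 40 of 41 settings. The IGFBP6 differences did so in 36 of 41 settings for E2T and 34 of 41 for E2P4T, and the IGFBP2 difference of E2T from P4T in 20 of 41. The IGFBP2 difference of E2P4T from E2T had a P-value under 0.05 in 8 of 41. Of these settings, 28 left out a single array. Where that array belongs to a group outside the comparison, the difference stays the same and only its SE can move. The tallies are therefore not counts of independent checks. Unadjusted calls in E2T against CO numbered 2 of 17 with all arrays (5.44% of all probe sets), 0 after median centring (5.65%), 5 with array weights (16.9%), 5 without E2T 3, P4T 4, E2P4T 5 and CO 3 (13.4%), and 1 to 4 with single arrays left out (3.56% to 9.7%). Of the correlations, IGF1 with IGFALS in CO had r = 0.77 (exact P-value 0.044) and IGF1 with IGFBP3 in E2P4T r = -0.23 (0.47) after median centring. The cause was not tested.

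The array numbers were not taken to pair the samples, since the labels do not say so and not every pair correlated. Of 42 pairs of arrays with the same number in different groups, 14 correlated above 0.1 after removal of group means (mean r 0.049, from -0.21 to 0.32, against -0.003 over 252 pairs of other numbers), and 11 of 28 arrays correlated best with their own number, a hint of pairing from the data and not from the design. With the replicate block, the IGFBP2 difference of E2T from CO was -1.13 (unadjusted P-value 0.02). Calls in E2T against CO stayed at 2 of 17, with 6.59% of all probe sets called, against 5.44% without the block. Those in E2T against P4T were 0 in place of 1, and the share over all probe sets was not computed there with the block. Differences of 0.5 log2 units were not recovered on simulated data at 7 arrays a group for probe sets drawn at random. The share for the IGF axis genes was not computed. IGF1R, IGFBP1 and IGFBP5 lay below the signal floor on most arrays.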
